A study of Homo sapiens with 6 samples.

Results

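Genes of the ubiquitin and proteasome system were followed in a prostate cancer cell line after loss of either of 2 RNA-processing factors. Members were all genes of the deposited gene or site table whose symbols begin with the proteasome prefixes PSMA, PSMB, PSMC, PSMD, PSME or PSMG, the ubiquitin enzyme prefixes UBE2, UBE3, UBE4 or USP, the F-box prefixes FBXO, FBXL or FBXW, or the cullin prefix CUL, together with UFD1L, which was added by name. This gave 75 of 4556 genes. The gene table held 29 of them among 1944 genes, the site table held 55 with 84 polyadenylation sites among 3118 genes and 4903 sites, and 9 members stood in both. UFD1L was added with its response already known, so its own values are a description and count as no support. PSMC3IP matches a prefix but encodes a factor of meiotic recombination, not a proteasome subunit.

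Protein degradation by this system starts when a ubiquitin-activating enzyme (E1) passes ubiquitin to a conjugating enzyme (E2), and a ligase (E3) directs its transfer to a chosen substrate. Cullins are scaffolds of large E3 complexes, in some of which F-box proteins pick the substrate, and deubiquitinases such as the USP family take ubiquitin off again. The proteasome has a barrel-shaped 20S core, built of alpha and beta rings, and a 19S regulatory particle that binds, unfolds and deubiquitinates substrates; the p97 ATPase with its cofactor UFD1L pulls ubiquitinated proteins from membranes and complexes before they reach it.

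The cells were LNCaP, a human prostate cancer line that responds to androgen. Cells were silenced repeatedly over 48 h with 50 nM siRNA against Sam68 (siSAM68; a STAR-family RNA-binding protein encoded by KHDRBS1), against XRN2 (siXRN2; a nuclear exonuclease of transcription termination) or with a scrambled control (siCTRL), in 2 biological replicates each. All 6 libraries used 3'READS, a method that reads the 3' ends of polyadenylated RNA and so yields both a gene's level and the share of its transcripts ending at each site. All groups came from the same line and differ in the siRNA alone, as far as the labels say.

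Gene levels were deposited as RPM (reads scaled to a sequencing depth), with 1 scale shared by both libraries of a group. Reads in listed genes numbered about 244708 and 447363 for the siCTRL libraries. Silencing of Sam68 gave 674072 and 788203 such reads, and silencing of XRN2 gave 597911 and 1599559. Unless named as deposited, every RPM value in this report is therefore a rescaled one, brought to a common depth by 1 factor per library. The factors ran from 1.37 (siXRN2 replicate 2) to 3.68 (siXRN2 replicate 1). KHDRBS1 stood at 601 and 741 RPM in siCTRL, 53.8 and 27.5 RPM in siSAM68 and 895 and 567 RPM in siXRN2, so the siSAM68 libraries carry their label; XRN2 levels were not analysed here. Of 10 luminal prostate markers 9 were in the gene table, summing to between 2214 and 3246 RPM per library, and of 9 stromal, endothelial and immune markers 0 were listed. Both tables hold genes and sites chosen by the authors, so every share below is a share of listed features. In bulk RNA, fewer expressing cells and less RNA per cell cannot be told apart.

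Polyadenylation sites are marked by a short signal upstream of the cleavage point, most often AATAAA. In the authors' annotation 50 of the 84 member sites (59.5%) had AATAAA and 16 (19.0%) had ATTAAA, against 53.5% and 16.8% of all listed sites. The windows below come from 3 genes in which the balance between 2 sites of one 3' UTR changed after siSAM68, as given with the pairs. In PSMA5 the first site stayed the main one in every library. The windows are 30-base stretches of GENCODE v29 transcripts (GRCh38), read 5′ to 3′ in transcript sense. The signal listed for each site is in capitals. They were located on the transcript by the spacing between the deposited sites and by the signal itself, since no genome of the hg19 build was used here.
PSMD14 first site: tttaAATAAAgcaacgaaaaacgctattaa
PSMD14 last site: acttacaaAATAAAatacatttacagtcta
PSMA5 first site: AATAAAgaaaattttaaaatatttgttaat
PSMA5 last site: ATTAAAagtaatctttacttgctttgagtg
UBE2D1 upstream site: tataAATAAAatgctttttctactatttgt
UBE2D1 downstream site: tctttATTAAAgtttttgaaacttgcctaa
In PSMD14 both sites, 296 bases apart, had AATAAA, starting 26 and 22 bases before the cleavage point. In PSMA5, where the sites lie 2808 bases apart, and in UBE2D1, where they lie 1152 bases apart, the upstream site had AATAAA and the downstream site had ATTAAA.

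Levels in siCTRL had a median of 75.4 RPM over the 29 members against 71.9 RPM over all listed genes. The highest was FBXL17, an F-box protein of dimerisation quality control, at 756 and 864 RPM. Core subunit PSMA7 followed at 571 and 633 RPM, overlapping with the E2 UBE2E1 at 574 and 572 RPM and with core subunit PSMA1 at 521 and 589 RPM. The order among these 3 is therefore within the spread of the control libraries. The most abundant regulatory subunit was PSMD8 at 364 and 388 RPM, and USP54, at 57.1 and 75.3 RPM, was the only USP gene in the gene table. The lowest were the F-box genes FBXO46, FBXL6 and FBXO30, the last at 7.07 and 13.0 RPM on about 5 and 17 reads.

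**Figure D1:**
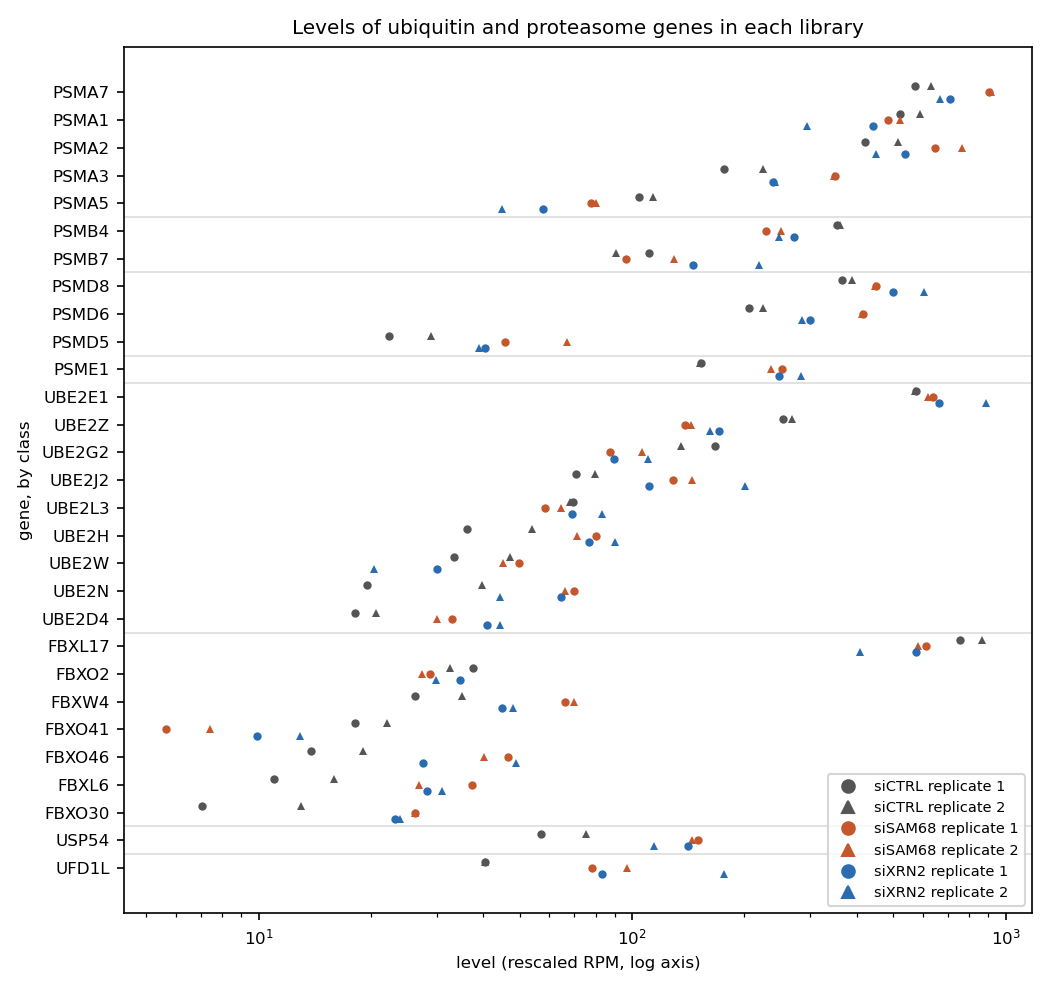
Level of each of the 29 members in each library, on a log axis of rescaled RPM, grouped by class and ordered by the siCTRL mean. FBXL17 sits at 756 and 864 RPM in siCTRL and FBXO30 at 7.07 and 13.0 RPM, and the knockdown libraries of PSMD6, USP54 and UFD1L lie to the right of their controls.

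After Sam68 silencing, ubiquitin and proteasome genes were more often higher than lower. Of the 29 members, 16 rose and 4 fell at a limma adjusted p under 0.05, that is 69.0% called, where 58.8% of all 1938 genes tested were called (35.3% higher and 23.4% lower). The median log2 change was 0.60 over members and 0.16 over all genes. The control and knockdown libraries did not overlap in 27 of 29 members, against 79.7% of all genes. Among the 28 members other than UFD1L, 15 rose and 4 fell (67.9%), with a median of 0.60. After XRN2 silencing 12 members rose and 5 fell, or 58.6% called against 33.3% of all genes (21.2% higher and 12.1% lower). The median log2 change was 0.45 over members and 0.08 over all genes, and groups did not overlap in 26 of 29 members, against 65.7% of all genes. Among the 28 members other than UFD1L, 11 rose and 5 fell (57.1%), with a median of 0.43. Rescaling by median-of-ratios, which moved the median of all genes after siSAM68 from 0.16 to 0.00, gave 14 higher and 6 lower members. After siXRN2 it gave 11 and 6. Shares of all genes called were not taken for this scaling or for the fits that follow, so their counts do not set the members apart. Without siCTRL replicate 1, the shallowest library, 6 members passed after siSAM68 and 3 after siXRN2. Leaving out siSAM68 replicate 1 or 2 left 11 or 9 calls after siSAM68, and leaving out siCTRL replicate 2 or siXRN2 replicate 2 left 10 or 8 after siXRN2. Median GC content was 47.2% in the 16 members that rose after siSAM68 and 54.0% in the 4 that fell, with 47.7% and 56.5% for all genes that rose or fell. After siXRN2 the order was the opposite, at 50.0% in members that rose and 47.3% in those that fell, with 53.1% and 46.9% for all genes. The part of GC content in these changes was not tested.

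**Figure D2:**
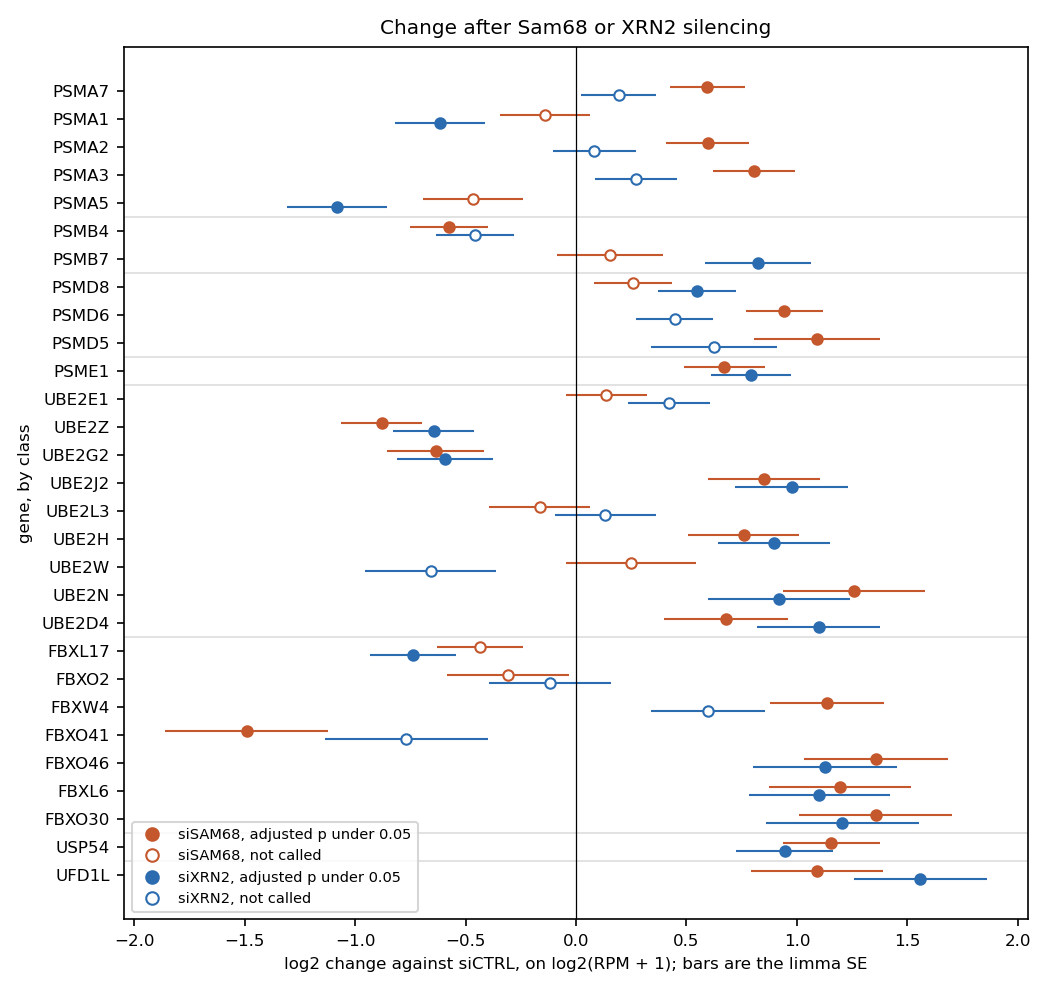
Log2 change against siCTRL with the limma SE (bars) for the 29 members, in siSAM68 and siXRN2, on log2(RPM + 1); filled points have an adjusted p under 0.05. After siSAM68, 16 filled points lie to the right of 0 and 4 to the left; after siXRN2, 12 and 5. Both comparisons use the same siCTRL libraries.

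In the 20S core, 3 of 5 alpha-ring subunits rose after siSAM68 and none of the 5 after siXRN2, where 2 fell. Of all genes, 35.3% rose after siSAM68, and 21.2% rose and 12.1% fell after siXRN2. With 5 genes these counts do not set the ring apart from the table. PSMA7 was at 571 and 633 RPM in siCTRL, 904 and 913 RPM in siSAM68 and 709 and 666 RPM in siXRN2. The siSAM68 libraries stood above all others and rose by log2 0.59 (SE 0.17; limma adjusted p = 0.0113), while the siXRN2 difference was 0.19 (SE 0.17; limma adjusted p = 0.399). PSMA3 was at 176 and 224 RPM in siCTRL, 350.3 and 347 RPM in siSAM68 and 239 and 242 RPM in siXRN2. The rise was log2 0.81 after siSAM68 (SE 0.19; limma adjusted p = 0.00565). PSMA2 was at 419.98 and 514 RPM in siCTRL, 647 and 764 RPM in siSAM68 and 539.5 and 449 RPM in siXRN2, where it overlapped the controls. Its level rose by log2 0.60 after siSAM68 (SE 0.19; limma adjusted p = 0.0167).

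PSMA5, also of the alpha ring, went the other way. Its level was 104 and 114 RPM in siCTRL, 77.4 and 80.0 RPM in siSAM68 and 57.7 and 44.9 RPM in siXRN2, with no overlap between any of the groups. The fall after siXRN2 was 2.13-fold (log2 -1.08, SE 0.23; limma adjusted p = 0.00839), and the siSAM68 difference, log2 -0.47, missed the threshold (limma adjusted p = 0.0899). PSMA1 was at 521 and 589 RPM in siCTRL, 484 and 521 RPM in siSAM68 and 442 and 295 RPM in siXRN2, a fall of log2 -0.62 after siXRN2 (SE 0.20; limma adjusted p = 0.0333). The beta ring gave 1 call after each knockdown. PSMB4, a subunit without a catalytic site, was at 353 and 360.5 RPM in siCTRL, 228 and 249.7 RPM in siSAM68 and 272 and 248 RPM in siXRN2. It fell by log2 -0.58 after siSAM68 (SE 0.18; limma adjusted p = 0.0148). PSMB7, which carries the trypsin-like activity, was at 111 and 90.5 RPM in siCTRL, 96.1 and 129 RPM in siSAM68 and 146 and 218 RPM in siXRN2. It rose by log2 0.83 after siXRN2 (SE 0.24; limma adjusted p = 0.0213), and 1 siSAM68 library lay between the controls and the other above them.

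Among 19S genes, PSMD6, a subunit of the lid that receives substrates, stood at 206 and 224 RPM in siCTRL, 414 and 412 RPM in siSAM68 and 300.3 and 285 RPM in siXRN2. The siSAM68 libraries were the highest, and the rise was 1.92-fold (log2 0.94, SE 0.17; limma adjusted p = 0.00276). PSMD5, a chaperone of regulatory particle assembly, was at 22.3 and 28.9 RPM in siCTRL, 45.6 and 67.2 RPM in siSAM68 and 40.4 and 39.0 RPM in siXRN2, with no overlap between groups. The rise was log2 1.09 after siSAM68 (SE 0.28; limma adjusted p = 0.00818). The lid subunit PSMD8 was at 364 and 388 RPM in siCTRL, 451 and 448 RPM in siSAM68 and 499.8 and 606 RPM in siXRN2. Its level rose by log2 0.55 after siXRN2 (SE 0.18; limma adjusted p = 0.0301). PSME1, an alpha chain of the 11S activator that opens the core, rose after both knockdowns. Its libraries held 153 and 152 RPM in siCTRL, 252 and 235 RPM in siSAM68 and 248 and 283 RPM in siXRN2. The rise was log2 0.67 after siSAM68 (SE 0.18; limma adjusted p = 0.00959) and 0.79 after siXRN2 (SE 0.18; limma adjusted p = 0.0104).

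Of the 7 proteasome calls after siSAM68, PSMD6 and PSME1 passed without siCTRL replicate 1, and the other 5 had limma adjusted p-values between 0.0502 and 0.129. Without siCTRL replicate 2, PSMB4 was at 0.0519. Without siSAM68 replicate 1, PSMA7, PSMB4, PSME1 and PSMA2 lay between 0.0550 and 0.147, and without siSAM68 replicate 2 these 4 and PSMD5 lay between 0.0667 and 0.173. Of the 5 calls after siXRN2, PSMA5 and PSME1 passed whichever library was left out. PSMD8, PSMA1 and PSMB7 missed the threshold without either siCTRL library or without siXRN2 replicate 2, with limma adjusted p-values between 0.0620 and 0.192, and PSMD8 also without either siSAM68 library (0.0681 each), as did PSMA1 without siSAM68 replicate 2 (0.05005). Under median-of-ratios scaling PSMA2 after siSAM68 (0.0593) and PSMD8 after siXRN2 (0.0581) did not pass.

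Of 9 conjugating enzymes measured, 4 rose and 2 fell after each knockdown. Of all genes, 35.3% rose and 23.4% fell after siSAM68, and 21.2% and 12.1% after siXRN2. Calls in both directions are therefore no trait of this class. UBE2Z, an E2 charged by the alternative activating enzyme UBA6, was at 253 and 268 RPM in siCTRL, 138 and 144 RPM in siSAM68 and 171 and 161 RPM in siXRN2. All 4 knockdown libraries lay below both controls. The fall was log2 -0.88 after siSAM68 (SE 0.18; limma adjusted p = 0.00432) and -0.64 after siXRN2 (SE 0.18; limma adjusted p = 0.0198). UBE2G2, an E2 of endoplasmic reticulum-associated degradation, was at 167 and 135 RPM in siCTRL, 87.4 and 106 RPM in siSAM68 and 89.3 and 110.2 RPM in siXRN2. It fell by log2 -0.64 (SE 0.22; limma adjusted p = 0.0238) and -0.59 (SE 0.22; limma adjusted p = 0.0487).

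UBE2J2, a membrane-anchored E2 of the same degradation route, rose where UBE2G2 fell. It was at 71.0 and 79.8 RPM in siCTRL, 129 and 145 RPM in siSAM68 and 111 and 200.2 RPM in siXRN2. The rise was log2 0.85 after siSAM68 (SE 0.25; limma adjusted p = 0.0136) and 0.98 after siXRN2 (SE 0.25; limma adjusted p = 0.0156), where the libraries lay far apart. UBE2N, which builds signalling chains with the E2 variant UBE2V1, was at 19.5 and 39.6 RPM in siCTRL, 69.9 and 66.2 RPM in siSAM68 and 64.7 and 44.4 RPM in siXRN2. Its rise was log2 1.26 (SE 0.32; limma adjusted p = 0.00758) and 0.92 (SE 0.32; limma adjusted p = 0.0404), with the 2 controls themselves differing by more than the nearest gap to a knockdown library. UBE2H, the E2 of the CTLH ligase complex, was at 36.2 and 54.0 RPM in siCTRL, 80.0 and 71.2 RPM in siSAM68 and 76.8 and 90.1 RPM in siXRN2. It rose by log2 0.76 (SE 0.25; limma adjusted p = 0.0208) and 0.90 (SE 0.25; limma adjusted p = 0.0191). UBE2D4, of the UBE2D family whose members are close in sequence, was at 18.1 and 20.6 RPM in siCTRL, 33.0 and 30.1 RPM in siSAM68 and 40.8 and 44.2 RPM in siXRN2. The rise was log2 0.68 (SE 0.28; limma adjusted p = 0.0491) and 1.10 (SE 0.28; limma adjusted p = 0.0144).

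The most abundant E2, UBE2E1, was at 574 and 572 RPM in siCTRL, 641 and 620.4 RPM in siSAM68 and 662 and 889 RPM in siXRN2. Neither difference passed (log2 0.14 and 0.42; limma adjusted p = 0.546 and 0.0899). UBE2L3, an E2 for HECT-type ligases, and UBE2W, which attaches ubiquitin to N-termini, passed in neither comparison, at log2 -0.17 and 0.25 after siSAM68 and 0.13 and -0.66 after siXRN2. Of the E2 calls, that of UBE2Z after siSAM68 passed whichever library was left out. Without siCTRL replicate 1, 5 of 6 E2 calls after siSAM68 (limma adjusted p between 0.0778 and 0.151) and all 6 after siXRN2 (0.0530 to 0.333) were lost. Without siSAM68 replicate 1, 3 of the siSAM68 calls were lost (0.140 to 0.245), and without siSAM68 replicate 2, 4 of them (0.0700 to 0.162). After siXRN2, 3 calls were lost without siCTRL replicate 2 (0.0539 to 0.0700), 2 without siXRN2 replicate 1 (0.131 to 0.157) and 3 without siXRN2 replicate 2 (0.0538 to 0.108). The UBE2D4 call after siSAM68 also ended under upper-quartile scaling (0.0586), median-of-ratios scaling (0.122) and a pseudocount of 5 (0.0514). UBE2D4 after siSAM68 was lost without siCTRL replicate 2 or either siXRN2 library (0.0524 to 0.0663), as was UBE2G2 after siXRN2 without either siSAM68 library (0.0813 and 0.0836).

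F-box genes encode proteins that choose the substrates of some cullin ligases. After siSAM68, 4 of 7 rose and 1 fell (35.3% and 23.4% of all genes), and after siXRN2, 3 rose and 1 fell (21.2% and 12.1% of all genes). FBXO46 was at 13.9 and 19.0 RPM in siCTRL, 46.4 and 40.3 RPM in siSAM68 and 27.6 and 48.8 RPM in siXRN2. Its level rose by log2 1.36 after siSAM68 (SE 0.32; limma adjusted p = 0.00636) and 1.13 after siXRN2 (SE 0.32; limma adjusted p = 0.0205). FBXO30, known in mouse from muscle atrophy, was at 7.07 and 13.0 RPM in siCTRL, 26.2 and 26.2 RPM in siSAM68 and 23.2 and 23.9 RPM in siXRN2. Its rise was log2 1.36 (SE 0.35; limma adjusted p = 0.00758) and 1.21 (SE 0.35; limma adjusted p = 0.0205), on about 5 and 17 control reads. FBXL6 was at 11.03 and 15.9 RPM in siCTRL, 37.3 and 26.9 RPM in siSAM68 and 28.3 and 31.0 RPM in siXRN2. It rose by log2 1.20 (SE 0.32; limma adjusted p = 0.0088) and 1.10 (SE 0.32; limma adjusted p = 0.0209). In each of these 3 low-level genes every knockdown library lay above both controls.

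FBXW4 was at 26.3 and 35.0 RPM in siCTRL, 66.2 and 69.8 RPM in siSAM68 and 44.8 and 47.9 RPM in siXRN2. The rise after siSAM68 was log2 1.14 (SE 0.26; limma adjusted p = 0.00533), and the siXRN2 difference of 0.60 did not pass (limma adjusted p = 0.0845). FBXO41, described from neurons, fell 3.08-fold after siSAM68, from 18.1 and 22.1 RPM to 5.64 and 7.42 RPM (log2 -1.49, SE 0.37; limma adjusted p = 0.00712). It was at 9.92 and 12.9 RPM in siXRN2, between the other groups. FBXL17, the most abundant member, was at 756 and 864 RPM in siCTRL, 613 and 583 RPM in siSAM68 and 575 and 407 RPM in siXRN2. It fell by log2 -0.74 after siXRN2 (SE 0.19; limma adjusted p = 0.0156), and the siSAM68 difference was -0.44 (limma adjusted p = 0.0664). FBXO2, which binds glycoproteins, passed in neither comparison, at log2 -0.31 and -0.12. The FBXW4 call after siSAM68 passed whichever library was left out. FBXO46, FBXL6 and FBXO30 were lost in both comparisons without siCTRL replicate 1 (limma adjusted p between 0.0502 and 0.115, with FBXL17 after siXRN2 among them) and after siXRN2 without siXRN2 replicate 2 (0.0600 to 0.177). FBXL17 was also lost without siCTRL replicate 2 (0.0852), FBXO41 and FBXL6 without siSAM68 replicate 1 (0.0558 and 0.102), and FBXO30 without siSAM68 replicate 2 (0.0506).

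USP54, of the ubiquitin-specific protease family, was at 57.1 and 75.3 RPM in siCTRL, 150 and 145 RPM in siSAM68 and 141 and 114 RPM in siXRN2. All knockdown libraries lay above the controls. The rise was 2.23-fold after siSAM68 (log2 1.16, SE 0.22; limma adjusted p = 0.00318) and 1.93-fold after siXRN2 (log2 0.94, SE 0.22; limma adjusted p = 0.0107), and without siCTRL replicate 1 the second had a limma adjusted p of 0.0661. UFD1L, the p97 cofactor, was at 40.4 RPM in each siCTRL library, 78.1 and 97.2 RPM in siSAM68 and 83.1 and 176 RPM in siXRN2. The difference was log2 1.09 after siSAM68 (SE 0.30) and 1.56 after siXRN2 (SE 0.30), the 2 siXRN2 libraries differing from each other by more than the lower of them differed from the controls.

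Both comparisons rest on the same siCTRL libraries, so a common direction is partly built in. Of the 29 members, 10 (9 besides UFD1L) were called higher and 2 lower in both, 8 were called after siSAM68 alone, 5 after siXRN2 alone and 4 in neither, with 0 called in opposite directions. Of all genes, 58.8% were called after siSAM68 and 33.3% after siXRN2. Counts over both comparisons were not taken for all genes, so those given describe the members and do not set them apart. The direct comparison of siXRN2 with siSAM68, which does not use siCTRL, called 0 of 29 members in limma, where 0.155% of all genes were called. At an unadjusted p under 0.05 it called 8 members, or 27.6%, against 22.9% of all genes. A call after 1 knockdown and not the other is therefore not shown to differ between them. Differences between the knockdowns were largest for UBE2W (log2 -0.91, SE 0.30; limma adjusted p = 0.113), FBXO41 (0.72, SE 0.37; limma adjusted p = 0.247) and PSMB7 (0.67, SE 0.24; limma adjusted p = 0.129). All 5 alpha-ring subunits were lower in siXRN2 than in siSAM68, by log2 -0.40 to -0.62, with no overlap between the libraries of both groups, a state shared by 21 of 29 members and 60.0% of all genes, and with limma adjusted p-values between 0.126 and 0.181. Without siXRN2 replicate 1, a fit that leaves 1 siXRN2 library, the direct comparison gave more calls. The share of all genes called in that fit was not taken, so those calls are not read as differences of the members.

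Polyadenylation site choice was measured as usage, a site's percentage of all reads of its gene. Member sites had the mix of positions of the whole table: 21.4% were first, 34.5% middle and 23.8% last sites of a 3' UTR with several sites, against 19.9%, 32.0% and 25.2% of all listed sites, as the table's type codes were read. After siSAM68, 11 of 84 member sites were called by limma, 6 higher and 5 lower, a share of 13.1% against 14.6% of all sites (8.68% higher and 5.96% lower). After siXRN2, 4 member sites were called, all higher, or 4.76% against 5.19% of all sites (3.79% higher). Control and knockdown libraries did not overlap at 72 of 84 member sites after siSAM68, against 76.1% of all sites, and at 60 after siXRN2, against 71.0%. The share of changed sites among these genes thus lay near that of the table. The 4 sites called after siXRN2 were also called, in the same direction, after siSAM68, with the same control libraries. The direct comparison of the knockdowns called 0 of 84 sites in limma, with 0.0% of all sites called, and 8 sites (9.52%) at an unadjusted p under 0.05, against 13.2% of all sites. Leaving out either siSAM68 library ended all 11 calls of siSAM68 (limma adjusted p between 0.0726 and 0.128), and leaving out any library of either knockdown ended all 4 of siXRN2 (0.0839 to 0.151). The number of reads behind a usage value is known for the 9 members that also stand in the gene table and unknown for the others. It is unknown for every member site called above. Some shares there are simple fractions that few reads can give, such as 40% and 75% of USP32 in siCTRL. Large shifts at those sites can therefore rest on few reads.

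Within the proteasome, usage of single sites was called in 2 genes of the 19S lid. PSMD14, the metalloprotease that removes ubiquitin from substrates at the proteasome, has a first site (hg19 chromosome 2, position 162267932, + strand) and a last site (162268228), whose windows are printed above. Usage of the first was 69.2% and 52.9% in siCTRL, 3.12% and 13.5% after siSAM68 and 19.0% and 14.8% after siXRN2. Usage of the last was 23.1% and 35.3% in siCTRL, 75% and 76.9% after siSAM68 and 81.0% and 70.5% after siXRN2. The control libraries mostly ended at the first site and all 4 knockdown libraries at the last, so transcripts with the longer 3' UTR prevailed. The last site was higher after siSAM68 (log2 1.38, SE 0.22; limma adjusted p = 0.0302) and after siXRN2 (log2 1.37, SE 0.22; limma adjusted p = 0.0401). The first was lower after siSAM68 (log2 -2.995, SE 0.65; limma adjusted p = 0.0468), and its siXRN2 difference, log2 -1.79, missed the threshold (limma adjusted p = 0.119).

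PSMD12, a scaffold subunit of the lid, has 3 listed sites on the - strand of hg19 chromosome 17, a first (65337037), a middle (65336733) and a last (65336619). The middle site took 70.0% and 68.9% of reads in siCTRL, 23.8% and 20.9% after siSAM68 and 33.3% and 44.9% after siXRN2. The last took 13.3% and 11.1% in siCTRL, 52.4% and 56.0% after siSAM68 and 42.5% and 33.3% after siXRN2. The groups did not overlap at either site. The last site was higher after both knockdowns (log2 2.07, SE 0.24, limma adjusted p = 0.0195 after siSAM68; log2 1.55, SE 0.24, limma adjusted p = 0.0387 after siXRN2), and the middle site was lower after siSAM68 (log2 -1.60, SE 0.21; limma adjusted p = 0.0214). The first site was listed at 0 in both controls and took 8.33% and 14.3% after siSAM68 and 8.05% and 3.85% after siXRN2. It was higher after siSAM68 (log2 3.58, SE 0.55; limma adjusted p = 0.0295). After siSAM68 both ends of the 3' UTR thus gained and its middle site lost, while after siXRN2 the first and middle sites did not pass (limma adjusted p = 0.0593 and 0.0762). Without siCTRL replicate 1, 3 of the 5 lid sites called after siSAM68 were lost (limma adjusted p between 0.0622 and 0.127), without siCTRL replicate 2, 2 were (0.0527 and 0.0912), and without either siXRN2 library both PSMD14 sites were (0.0639 to 0.0910). The PSMD12 call after siXRN2 was also lost without siCTRL replicate 1 (0.0628) or 2 (0.0511).

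**Figure D3:**
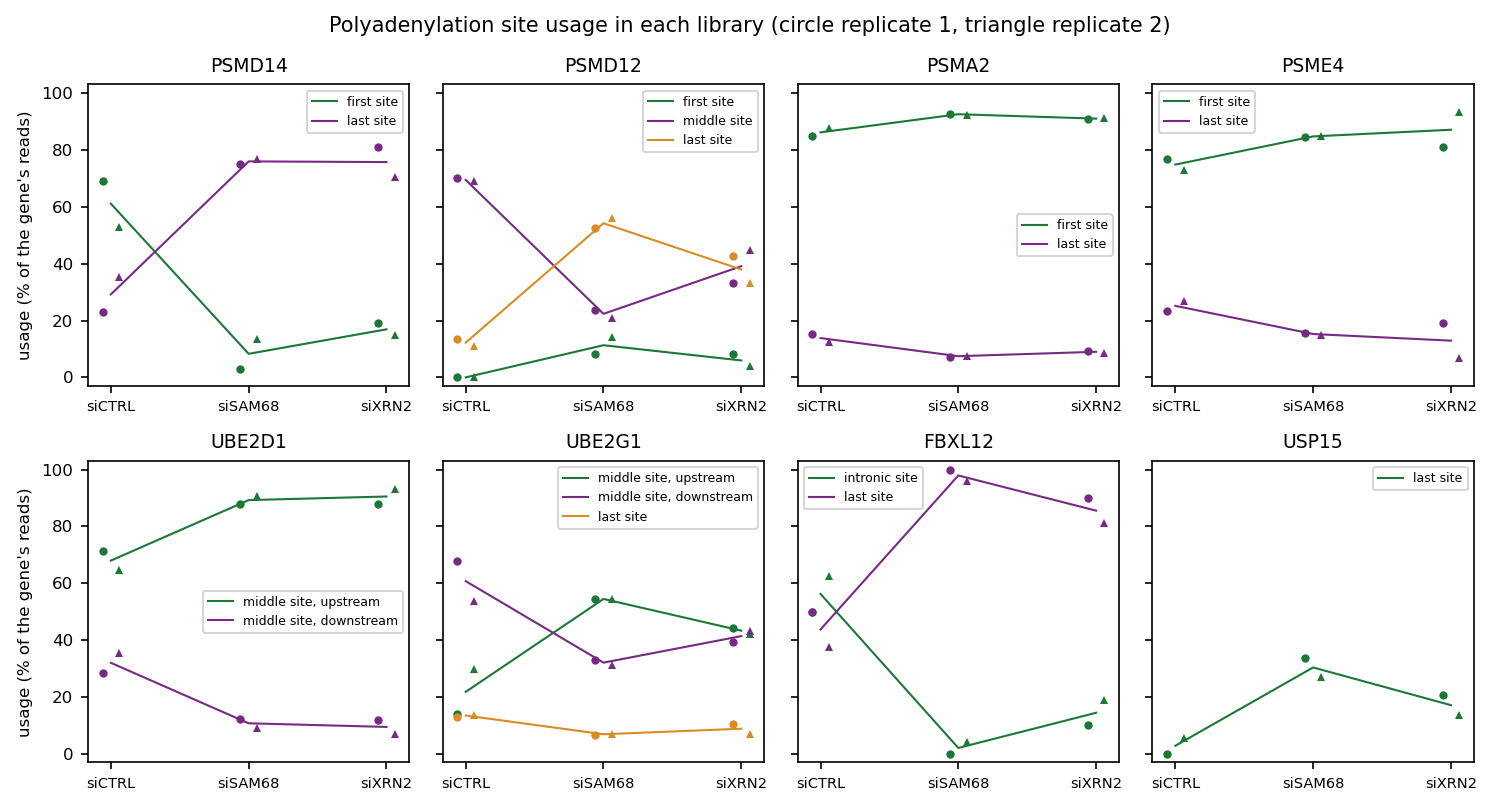
Usage of each listed site, in percent of the gene's reads, in every library (points) with the group means (lines), for 8 members. PSMD14 and FBXL12 move to their last site in both knockdowns, reaching 75% and 76.9% and 100% and 95.8% in siSAM68, while PSMA2 stays above 84% on its first site throughout.

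In core and activator genes the most used site was the same in every library. On their own, 0 of 4 alpha-ring sites and 0 of 2 activator sites were called, against 14.6% of all sites after siSAM68 and 5.19% after siXRN2. With so few sites this does not show stable usage, and control and knockdown libraries did not overlap at any of them. The ratio of the 2 PSMA5 sites was called after siSAM68, as given with the pairs. PSMA2 used its first site for 84.8% and 87.6% of reads in siCTRL, 92.7% and 92.4% after siSAM68 and 90.7% and 91.3% after siXRN2, with a mean of 1162 reads per library behind the gene. The shift was in the same direction in all 4 knockdown libraries and did not pass (limma adjusted p = 0.102 and 0.189). PSMA5, whose windows are printed above, used its last site for 0% and 1.33% of reads in siCTRL, 7.33% and 4.97% after siSAM68 and 6% and 5.77% after siXRN2, on a mean of 144 reads (limma adjusted p = 0.0618 and 0.0863). PSMD8 used its last site for 32.4% and 30.4% in siCTRL, 36.8% and 42.6% after siSAM68 and 36.5% and 44.4% after siXRN2 (limma adjusted p = 0.221 and 0.223). PSME4, the PA200 activator of the core, moved towards its first site, used at 76.7% and 73.0% in siCTRL, 84.5% and 85.0% after siSAM68 and 81.0% and 93.2% after siXRN2 (limma adjusted p = 0.137 and 0.125).

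Among E2 genes, 1 site rose and 1 fell after siSAM68, of 17, where 14.6% of all sites were called. UBE2D1, a broadly acting E2, has an upstream (hg19 chromosome 10, position 60129356, + strand) and a downstream site (60130508). The upstream site took 71.4% and 64.5% in siCTRL, 87.7% and 90.8% after siSAM68 and 87.9% and 93.1% after siXRN2. It was above both controls in every knockdown library, opposite in direction to PSMD14, by log2 0.39 (SE 0.07; limma adjusted p = 0.0372) and 0.41 (SE 0.07; limma adjusted p = 0.0449). UBE2G1, a chain-building E2 related to UBE2G2, has 3 sites on the - strand of hg19 chromosome 17. The one at 4172554 took 67.9% and 53.6% in siCTRL, 33.1% and 31.1% after siSAM68 and 39.5% and 43.3% after siXRN2, and fell after siSAM68 (log2 -0.89, SE 0.17; limma adjusted p = 0.0421). The site 2172 bases upstream, 4174726, took 13.9% and 29.8% in siCTRL, 54.6% and 54.4% after siSAM68 and 44.4% and 42.3% after siXRN2 (limma adjusted p = 0.0620 and 0.114). Both genes thus ended more often at the site nearer the coding region. Without siCTRL replicate 1 or either siXRN2 library neither E2 call after siSAM68 passed (limma adjusted p between 0.0513 and 0.0790), and without siCTRL replicate 2 UBE2D1 did not (0.0515). The UBE2D1 call after siXRN2 was lost without siCTRL replicate 1 (0.0600) or 2 (0.0617).

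The other E2 sites were not called. UBE2D3 used its last site for 50.0% and 38.1% in siCTRL, 29.2% and 28.8% after siSAM68 and 29.2% and 34.4% after siXRN2 (limma adjusted p = 0.105 and 0.187). UBE2J2 used its first site for 49.0% and 50.5% in siCTRL, 49.4% and 55.8% after siSAM68 and 62.0% and 79.1% after siXRN2 (limma adjusted p = 0.695 and 0.0958). UBE2V1, whose locus has a read-through neighbour and a closely related gene, used its exonic site for 7.27% and 8.75% in siCTRL, 1.85% and 2.42% after siSAM68 and 2.78% and 2.59% after siXRN2 (limma adjusted p = 0.0627 and 0.104). UBE4B, an E4 enzyme that extends chains, used its last site for 77.4% and 66.1% in siCTRL, 83.5% and 89.8% after siSAM68 and 86.8% and 87.4% after siXRN2 (limma adjusted p = 0.0798 and 0.102).

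In usage of single sites, FBXL12 was the only ligase gene called among 14 F-box, 4 cullin and 2 HECT genes. Of all listed sites tested, 14.6% were called after siSAM68 and 5.19% after siXRN2. FBXL12, on the - strand of hg19 chromosome 19, has an intronic site (9925441) and a last 3' UTR site (9920946). The intronic site took 50.0% and 62.5% in siCTRL, 0% and 4.17% after siSAM68 and 10.0% and 18.9% after siXRN2. The last site took 50.0% and 37.5% in siCTRL, 100% and 95.8% after siSAM68 and 90.0% and 81.1% after siXRN2. The intronic site thus had a share similar to that of the last site in the controls and was the minor site in all knockdown libraries. The reads behind these shares are unknown, and shares such as 50.0% and 62.5% can arise from few reads. The last site was higher after siSAM68 (log2 1.16, SE 0.15; limma adjusted p = 0.0214) and siXRN2 (log2 0.96, SE 0.15; limma adjusted p = 0.0389), and the intronic site was lower after siSAM68 (log2 -4.65, SE 0.86; limma adjusted p = 0.0388), with a limma adjusted p of 0.16 after siXRN2. Leaving out any siCTRL or siXRN2 library ended the call of the intronic site (limma adjusted p between 0.0767 and 0.0985).

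FBXL20, an F-box gene, used its listed middle site for 100% and 57.1% in siCTRL, 0% and 6.25% after siSAM68 and 100% and 26.9% after siXRN2, a difference that did not pass (limma adjusted p = 0.0522 after siSAM68). FBXW7, the receptor for cyclin E and MYC, used its last site for 87.5% and 90.9% in siCTRL, 91.2% and 87.1% after siSAM68 and 89.7% and 92.8% after siXRN2, the groups overlapping. CUL3, the scaffold of BTB-protein ligases, used its middle site for 77.5% and 70.5% in siCTRL, 75.6% and 71.9% after siSAM68 and 79.1% and 59.0% after siXRN2, again overlapping. CUL4A, scaffold of the DDB1 ligases, used its middle site for 58.1% and 41.4% in siCTRL, 29.3% and 32.1% after siSAM68 and 46.7% and 52.5% after siXRN2 (limma adjusted p = 0.0768 and 0.964). UBE3B, a HECT ligase, used its intronic site for 53.1% and 56.4% in siCTRL, 37.7% and 38.3% after siSAM68 and 54.6% and 41.6% after siXRN2 (limma adjusted p = 0.0798 and 0.401).

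Of 22 deubiquitinase sites, 1 rose and 1 fell after siSAM68 and 0 were called after siXRN2 (limma), against 14.6% and 5.19% of all sites. The first site of USP43 (hg19 chromosome 17, position 9632707, + strand) was listed at 0 in both controls and took 15.1% and 7.89% after siSAM68 and 5.41% and 11.8% after siXRN2, and was called after siSAM68 (log2 3.58, SE 0.58; limma adjusted p = 0.0317). The middle site of USP32 (chromosome 17, position 58254688, - strand) took 40% and 75% in siCTRL, 0% and 0% after siSAM68 and 50.0% and 9.52% after siXRN2. It fell after siSAM68 (log2 -5.80, SE 0.84; limma adjusted p = 0.0270), while the siCTRL libraries disagreed on the other site of the gene, at 60.0% and 0%. Leaving out any 1 siCTRL library ended both calls (limma adjusted p between 0.0593 and 0.0805). USP15, a deubiquitinase of TGF-beta signalling, used its last site for 0% and 5.71% in siCTRL, 33.8% and 27.0% after siSAM68 and 20.7% and 13.6% after siXRN2, above the controls in all 4 knockdown libraries (limma adjusted p = 0.0608 and 0.11). The X-linked USP9X used its first site for 84.6% and 82.9% in siCTRL, 74.5% and 72.7% after siSAM68 and 79.7% and 80.9% after siXRN2 (limma adjusted p = 0.0607 and 0.371).

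For genes with at least 2 sites in the 3' UTR, the 2 most used were compared as log2((distal + 1) / (proximal + 1)) of their usage. After siSAM68, 8 of 19 member pairs were called by limma, or 42.1% against 37.5% of all 1110 pairs, 4 towards the distal and 4 towards the proximal site (21.6% and 15.9% of all pairs). After siXRN2, 4 of 19 were called, or 21.1% against 15.1% of all pairs, 3 towards the distal and 1 towards the proximal site (8.57% and 6.58% of all pairs). Groups did not overlap in 16 of 19 member pairs after siSAM68, against 84.1% of all pairs, and in 15 after siXRN2, against 79.2%. The median change was -0.86 over member pairs after siSAM68 and -0.79 after siXRN2, against 0.50 and 0.39 over all pairs, so 7 and 8 of 19 pairs lay above 0 where 54.1% and 55.2% of all pairs did.

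Pairs moved to the distal site in 3 proteasome genes and 1 deubiquitinase after siSAM68. In PSMD14 the log2 ratio was -1.54 and -0.57 in siCTRL, 4.21 and 2.43 after siSAM68 and 2.03 and 2.18 after siXRN2, a change of 4.38 (SE 0.72; limma adjusted p = 0.0273) and 3.16 (SE 0.72; limma adjusted p = 0.0498). In PSMD12 it was -2.31 and -2.53 in siCTRL, 1.11 and 1.38 after siSAM68 and 0.34 and -0.42 after siXRN2, a change of 3.66 (SE 0.40; limma adjusted p = 0.0136) and 2.38 (SE 0.40; limma adjusted p = 0.0359). That direction holds for the middle and last sites: between the first and last sites the change was -1.51 after siSAM68 (limma adjusted p = 0.0470) and -1.17 after siXRN2 (limma adjusted p = 0.0898). The groups were apart in both genes. In PSMA5 the ratio was -6.66 and -5.42 in siCTRL, -3.49 and -4.01 after siSAM68 and -3.76 and -3.81 after siXRN2, a change of 2.29 after siSAM68 (SE 0.52; limma adjusted p = 0.0367). In USP9X it was -3.53 and -3.69 in siCTRL, -2.24 and -2.29 after siSAM68 and -2.95 and -2.997 after siXRN2, a change of 1.34 after siSAM68 (SE 0.30; limma adjusted p = 0.0352). Both genes stayed mainly on the proximal site in every library.

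Pairs moved to the proximal site in UBE2D1, UBE2G1, FBXO28 and USP32. In UBE2D1 the ratio was -1.29 and -0.84 in siCTRL, -2.74 and -3.17 after siSAM68 and -2.77 and -3.57 after siXRN2, a change of -1.88 (SE 0.44; limma adjusted p = 0.0379) and -2.10 (SE 0.44; limma adjusted p = 0.0469). In UBE2G1 it was 2.21 and 0.83 in siCTRL, -0.70 and -0.79 after siSAM68 and -0.16 and 0.03 after siXRN2, a change of -2.27 after siSAM68 (SE 0.54; limma adjusted p = 0.0379). The F-box gene FBXO28 was at -0.54 and -0.83 in siCTRL, -2.11 and -2.00 after siSAM68 and -1.59 and -1.61 after siXRN2, a change of -1.38 after siSAM68 (SE 0.31; limma adjusted p = 0.0361). These 3 genes had no overlap between siCTRL and siSAM68. In USP32 the controls were at -0.57 and 6.25 and both siSAM68 libraries at -6.66, a change of -9.50 with a wide error (SE 2.43; limma adjusted p = 0.0410). USP37, a deubiquitinase of the cell cycle, was at 0.00 in both controls and both siSAM68 libraries and at 1.44 and 2.37 in siXRN2 (change 1.90, SE 0.42; limma adjusted p = 0.0476). Each of its 2 sites took 25.0% and 4.55% in siCTRL. Both were at 0% in both siSAM68 libraries, where the ratio comes from the added 1 alone. After siXRN2 the proximal site took 5.88% and 0% and the distal site 17.65% and 4.17%. The distal site thus did not rise above its controls, and the reads behind these shares are unknown. UFD1L was at -2.999 and -3.39 in siCTRL, -4.09 and -5.37 after siSAM68 and -4.65 and -5.84 after siXRN2. No pair call held whichever library was left out. After siSAM68, 0 pairs were called without siSAM68 replicate 1, 1 without siSAM68 replicate 2 or either siXRN2 library and 2 without siCTRL replicate 1. After siXRN2, the 4 pairs had limma adjusted p-values between 0.0577 and 0.183 in all such fits.

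**Figure D4:**
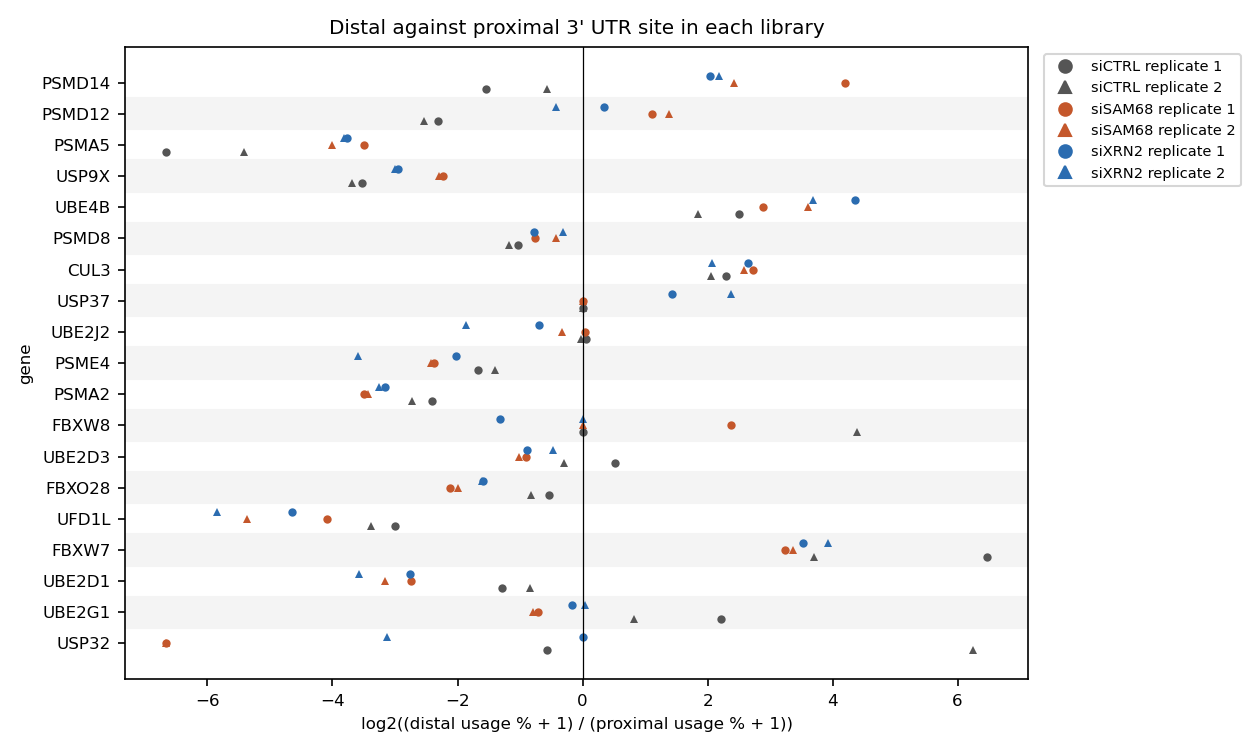
Log2 ratio of distal to proximal usage for the 19 member genes with a pair, in each library, ordered by the change after siSAM68. PSMD14 and PSMD12 stand at the top, with changes of 4.38 and 3.66, and USP32 at the bottom with -9.50 and widely separated controls (-0.57 and 6.25).

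For 9 genes both the level and the sites were measured. UFD1L, with a mean of 236 reads per library, kept 89.7% and 88.7% of its reads on the first site in siCTRL, 95.4% and 96.4% after siSAM68 and 93.8% and 98.3% after siXRN2 (limma adjusted p = 0.105 and 0.126), while its level was above the controls in every knockdown library. UBE2H, which rose in level, used its middle site for 15.4% and 11.3% in siCTRL, 1.94% and 3.73% after siSAM68 and 2.26% and 5.50% after siXRN2 (limma adjusted p = 0.0648 and 0.109). UBE2G2, which fell in level, stayed on its last site at 95.8% and 95.5% in siCTRL, 91.7% and 91.7% after siSAM68 and 87.1% and 86.9% after siXRN2 (limma adjusted p = 0.207 and 0.0805). UBE2D4 used its main middle site for 92.3% and 74.1% in siCTRL, 95.3% and 97.1% after siSAM68 and 93.0% and 92.7% after siXRN2. None of the 15 sites of these 9 genes was called by limma in either comparison over all sites, at mean depths from 24.5 reads (FBXO41) to 1162 reads (PSMA2).

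Other genes of the pathway were taken from lists of 217 symbols outside the members. Of 31 measured in the gene table, 8 rose and 11 fell after siSAM68 (25.8% and 35.5%, against 35.3% and 23.4% of all genes), and 6 rose and 10 fell after siXRN2 (19.4% and 32.3%, against 21.2% and 12.1%). Their difference from the members was not tested. Of 8 cullin and APC/C adaptors, 1 rose and 6 fell after siSAM68, and 2 rose and 4 fell after siXRN2. Their largest changes were in ANAPC1, the scaffold of the anaphase-promoting complex (13.3 ± 4.80 RPM in siCTRL and 3.79 ± 0.147 RPM in siSAM68, mean ± SD, n = 2; log2 -1.54, limma adjusted p = 0.0100), and VHL, the substrate receptor for HIF (966 ± 37.8 RPM in siCTRL and 487 ± 112 RPM in siXRN2, SD, n = 2; log2 -1.004, limma adjusted p = 0.00839). ANAPC1 levels were low, and at a like level FBXO30, with 7.07 and 13.0 RPM in siCTRL, had about 5 and 17 reads. Fits without 1 library are not given for these pathway genes. Of 9 genes of p97 function and endoplasmic reticulum-associated degradation, 5 rose and 1 fell after siSAM68, and 2 rose and 3 fell after siXRN2. SYVN1, the membrane ligase of that route, stood at 17.5 ± 3.20 RPM in siCTRL, 73.2 ± 5.96 RPM in siSAM68 and 54.6 ± 7.03 RPM in siXRN2 (SD, n = 2). The rise was log2 2.01 (SE 0.27; limma adjusted p = 0.000568) and 1.59 (SE 0.27; limma adjusted p = 0.0051). EDEM1, which marks misfolded glycoproteins for that route, fell by log2 -1.04 after siXRN2 (limma adjusted p = 0.0161).

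Of 3 ubiquitin precursor and E1 genes, 2 rose after siSAM68, and 2 rose and 1 fell after siXRN2. UBA3, of the NEDD8-activating enzyme that switches cullins on, rose by log2 1.008 and 0.78 (limma adjusted p = 0.00533 and 0.0209), and RPS27A, which encodes ubiquitin fused to a ribosomal protein, by 0.59 and 0.98 (limma adjusted p = 0.0326 and 0.00967). The SUMO protease SENP3 fell by log2 -0.91 and -0.96 (limma adjusted p = 0.00965 and 0.0155). In the site table, 115 sites of 63 such genes gave 6 higher and 5 lower calls after siSAM68 (9.57%, against 14.6% of all sites) and 2 and 2 after siXRN2 (3.48%, against 5.19%). TNFAIP3, the deubiquitinase A20 that restrains NF-kappaB signalling, had its downstream site (hg19 chromosome 6, position 138204447) listed at 0 in both siCTRL libraries. That site took 75.6 ± 4.76% in siSAM68 and 31.7 ± 2.36% in siXRN2 (SD, n = 2; log2 6.26 and 5.03, limma adjusted p = 0.00809 and 0.0111). The upstream site (138203730) held 100% in both siCTRL libraries. The reads behind these shares are not given here, so the shift can rest on few reads.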

How the data were processed

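RNA 3' ends were counted in 6 LNCaP libraries, 2 in each of 3 groups, and mapped to hg19 with cutadapt and Bowtie2, per the submitters' processing notes. No source used here gives versions, an annotation, a strand setting or the rule by which genes and sites were listed, so overlapping or related genes may share reads. The authors deposited gene levels as RPM with 1 decimal. The steps in the values show 1 scale for both libraries of a group. The authors deposited site usage as percent of a gene's reads, and a signed score that is not defined, used for 1 description in the closing section. Columns were matched to libraries by group and by the number shared with the sample descriptions.

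To put libraries on a common depth, RPM values were multiplied by 1 factor per library that brought its sum over listed genes to the sum of both libraries of its group. Tests were run in limma 3.58.1 (R 4.3.3) with all 3 groups in a single fit, a pseudocount of 1 and Benjamini-Hochberg adjustment over the whole table (threshold 0.05). Genes averaging 1 RPM or more entered as log2(RPM + 1), sites averaging 1% or more as log2(percent + 1), and pairs as log2((distal + 1) / (proximal + 1)). These scales understate changes of low values, and fold values are ratios of group means. The variance was allowed to depend on the mean for genes and sites, and not for pairs. P-values measure the spread between 2 biological replicates a group. The steps gave reads only approximately, so they describe depth and no count test was run. Intervals for single values are not given. The code was tested on simulated data. GENCODE v29 transcripts gave the site windows and GC content. Tables and figures were made in python 3.11.15 with pandas 2.3.3 and matplotlib 3.10.9.

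Values in every library were due for the 12 largest called expression changes and the 8 largest called usage differences per comparison, every called pair, UFD1L and the most abundant member of each class; of other pathway genes, at most 2 called per list and comparison. Other members were named after their values were seen. The members and all lists were chosen with earlier results of these data known. Alternatives varied scaling, pseudocount, filters, the variance trend, a depth minimum, the choice of pair, a replicate block and the libraries included.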

Additional observations from a re-analysis of the deposited data

How the results depend on the processing

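With RPM as deposited, not rescaled for depth, 0 of 29 members were called by limma after siSAM68 (20 in the reported fit) and 0 after siXRN2 (17). Without the mean-variance trend, 9 were called after siXRN2. Pseudocounts, filters, upper-quartile and median-of-ratios scaling kept the counts of expression calls within 1.5 times. Counts without UFD1L, a choice made after seeing the data, were 19 and 16 of 28. Leaving out 1 library gave 6 to 20 members after siSAM68, 3 to 18 after siXRN2 and 0 to 8 in the direct comparison. It gave 0 to 13 sites after siSAM68 and 0 to 4 after siXRN2, and 0 to 7 pairs after siSAM68 and 0 to 3 after siXRN2. For genes known to have a mean of at least 50 reads over the libraries, limma called 2 of 14 sites after siSAM68 and 2 after siXRN2. In those genes it called 2 of 5 pairs after each. Single libraries can lie below that mean, as UBE2D4 did with about 13 and 27 reads in siCTRL. Shares of all genes, sites or pairs called were not taken for the alternative fits of this section. On percent with no log, 0 sites were called after siXRN2. With the first and last site as the pair, 2 pairs were called after siXRN2, and PSMD12 turned to -1.51 after siSAM68 and -1.17 after siXRN2, its upstream site being another one by construction.

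The numbers of the replicates did not establish a pairing: deviations of same-numbered libraries correlated at 0.08, 0.00 and 0.18 across genes. With a replicate block, 19 and 15 members, 1 and 0 sites, and 2 and 0 pairs were called after siSAM68 and siXRN2. Where no construction is named, the cause of a change was not tested. The planned edgeR test on recovered reads was not run, since RPM with 1 decimal gave reads only approximately. With 2 libraries a group and at most about 447363 control reads in listed genes, small shifts and sites of rare transcripts were not detectable.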

Other observations

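In the authors' deposited table, 25 of 29 members (86.2%) carried a score whose size reached 1.3 for one knockdown or the other, against 67.3% of all listed genes. For sites the authors' deposited table gave 71 of 84 members (84.5%), against 81.1% of all listed sites.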
